A study of Mus musculus with 23 samples.

Results

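The sex difference in DNA methylation of control mouse liver was taken as the 1493 regions of 100 bp at which the authors listed a difference between control males and control females, of 3885 regions that they listed in any of 4 comparisons (38.4%). Methylation had been measured by reduced representation bisulfite sequencing, which reads cytosine methylation in MspI-cut, CpG-rich fragments. A region is a member because its difference passed the authors' listing threshold, so that the existence of a difference in each member is given by the choice and is not a result. Sizes, directions, positions, spacing and the values in the other 3 comparisons were not used in choosing them, beyond the listing threshold. That threshold was 15 points with a q-value under 0.05, and both parts bear on the sizes seen.

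The control mice were 6 males and 5 females whose Stat5a-Stat5b locus was floxed and STAT5 intact. The other groups were 6 males and 6 females with the floxed locus and an albumin promoter-driven Cre, which removes STAT5a and STAT5b from hepatocytes (called KO here), while the other cells of the liver keep both genes. All mice were aged 8 to 12 weeks, and the strain background was labelled as mixed C57BL/6 x 129J, with the Cre line bred on FVB/N. Each library came from the whole liver of 1 mouse, so a shift in methylation within cells and a shift in the mix of cell types cannot be told apart. Nor was it tested whether the mixed strain background moves with the differences between the control sexes. The sample titles carry a code of unstated meaning. It was shared by 2 control males and 2 control females, while 4 control males carried one code and 3 control females another. Titles ended in the letter B for 4 of 6 control males and for 0 of 5 control females. They did so for 3 of 6 KO males and 6 of 6 KO females. No code was shared by control and KO mice of the same sex, so within a sex code and genotype cannot be told apart. Whether these codes move with the differences was not tested, since the table gives no value per animal.

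Growth hormone is secreted in pulses in male rodents and more evenly in females. It acts on hepatocytes through its receptor and the kinase JAK2, which activates the transcription factors STAT5a and STAT5b. STAT5 activity is therefore intermittent in male liver and more continuous in female liver, and many liver genes for steroid, drug and lipid metabolism are expressed in a sex-dependent way under this signal. Methylation of CpG sites in promoters and enhancers is usually low where these elements are active.

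Each value is the methylation of the first-named group minus that of the second, in percentage points, and a positive value in control males against control females marks higher methylation in males. A 0 marks a region that the authors did not list in that comparison. It is not a measured absence of a difference. The table holds no methylation level, read depth, q-value or standard deviation, so no error over animals can be attached to a single region. Positions are in mm9, as deposited, and no gene was assigned to a region, since no annotation of that build was used here.

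Control males were higher at 706 members (18.2% of the regions in the table) and lower at 787 (20.3%). The share higher in males was 47.3% (95% exact Clopper-Pearson interval 44.7 to 49.9), which did not pass an exact two-sided binomial test against an equal split after adjustment over 2 tests (p = 0.0384, adjusted p = 0.0768). With neighbours within 1 kb that share a direction merged, 47.1% of units were higher in males, which passed (exact binomial test over 1368 units, p = 0.0326, adjusted p = 0.0472). That adjusted value was set by the Fisher's exact test adjusted with it (p = 0.0472), in a setting added after the data were seen. Passing after adjustment over 2 tests thus depended on that added test. The binomial test takes regions as units, although all members come from the same mice and neighbouring regions often share reads. Its p-value describes the list and no spread over animals. The split varied with the size of the difference, which was not tested across the sizes. Among 779 members between 15 and 20 points, 397 were higher in males (51.0%), while among 354 members between 20 and 25 points 154 were (43.5%), and among 130 members between 30 and 40 points 48 were (36.9%). Of the 57 members of 40 points and more, 29 were higher in males. With a minimum of 25 points, which 360 regions met (9.27% of the table), 155 members were higher in males and 205 lower, and this split of 43.1% passed (exact binomial test, adjusted p = 0.0194). The call at 25 points was lost without chromosome 9, which was chosen for its low share, so that its removal had to raise the share. Without it the share at 25 points was 44.7% (exact binomial test over 333 members, adjusted p = 0.125). Over all sizes, where the unmerged split had not passed, the share without chromosome 9 was 48.3% (exact binomial test over 1397 members, adjusted p = 0.286). The merged units were not tested without chromosome 9.

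Sizes fell off steeply from the threshold in both directions. The median of the members higher in males was 19.3 points (10th to 90th percentile 15.8 to 31.1), and that of the members lower in males was -20.2 points (-32.4 to -15.9). In all, 52.2% of members lay between 15 and 20 points, 8.71% between 30 and 40 points, and 1.41% at 50 points or more. The smallest positive member in the authors' deposited table, 15.01 points, was at chromosome 2, 171191101 to 171191201, and the smallest negative one, -15.04 points, at chromosome 6, 127313501 to 127313601.

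**Figure D1:**
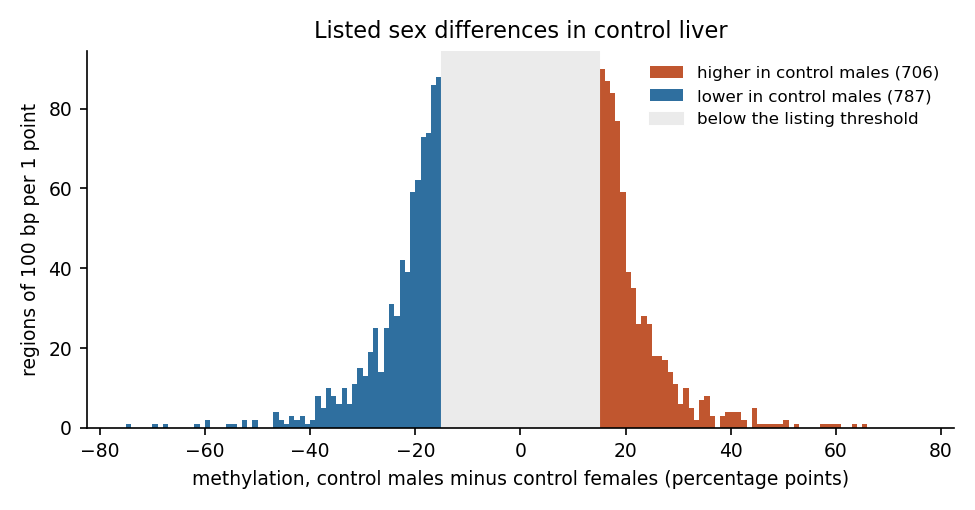
Distribution of the listed differences, with the difference (control males minus control females, percentage points) on the x axis and the number of 100 bp regions per 1 point on the y axis. Counts are highest just beyond 15 points on both sides and thin out to 65.7 and -74.5 points; nothing below the threshold is listed.

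The 10 largest differences in each direction were examined for their values in the other comparisons. Of the 10 members highest in males, 5 lay on chromosome 11. The largest, at chromosome 11, 62520801 to 62520901, had 65.7 points between control males and control females in the authors' deposited table and 53.1 points between KO females and control females. In the authors' deposited table the next, at chromosome 11, 71858601 to 71858701, had 63.4 points between the control sexes, -20.9 points between KO and control males and 42.8 points between KO and control females. The third, at chromosome 14, 72926401 to 72926501, had 60.04 points between the control sexes and 52.3 points between KO and control females, and was listed in neither other comparison of the authors' deposited table. At these 3 positions KO females were thus above control females by most of the distance between the control sexes. The control females enter both differences, so a high or low value in that group alone moves both.

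At chromosome 11, 88289701 to 88289801, the pattern lay in the males. Control males exceeded control females there by 58.88 points in the authors' deposited table, and the KO male minus control male value was -58.88 points, with no listing in the other 2 comparisons. Another member was at chromosome 19, 29018701 to 29018801, where the authors' deposited table gives 57.1 points between the control sexes and no other listing. The same held at chromosome 1, 137580001 to 137580101 (50.5 points in the authors' deposited table). Among the 10 members highest in males, 7 were listed in KO females against control females, all 7 higher in KO, and 5 were listed in KO males against control males, 4 of them lower in KO. Of all members higher in males, these comparisons listed 28.2% and 20.0%. Of all regions in the table, they listed 28.1% and 55.4%. The 10 were picked for extreme control sex differences, and each of these comparisons shares a control group with that difference. A high or low value in the shared group alone moves both.

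Among the 10 members with the largest negative values, the first, at chromosome 11, 115664901 to 115665001, was listed everywhere. The authors' deposited table gives it -74.5 points between the control sexes, 16.6 points between KO males and KO females, 17.8 points between KO and control males and -73.3 points between KO and control females. Methylation there was thus far higher in control females than in any of the groups set against them. The second, at chromosome 14, 121299001 to 121299101, had -69.9 points between the control sexes and 18.9 points between KO and control males in the authors' deposited table. A region at chromosome 6, 149138201 to 149138301, had -59.2 points between the control sexes and 52.3 points between KO and control males in the authors' deposited table. Of these 10 members, 5 were listed in KO males against control males, all 5 higher in KO, and 3 in KO females against control females, all 3 lower in KO. Of all members lower in males, these comparisons listed 39.8% and 28.0%. The limit of shared control groups and of picking by extreme values holds for these counts too. Another 2 of the 10 were listed in no other comparison, at chromosome 1, 127782801 to 127782901 (-59.4 points) and 82895701 to 82895801 (-54.6 points, both from the authors' deposited table). Another member lay within 1 kb of 4 of these 10, and of 0 of the 10 highest in males, a difference that was not tested.

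Members were found on all 19 autosomes in unequal numbers. Chromosome 11, which carries the Stat5a and Stat5b genes, held the most members (139) and the highest density, 11.8 members per 10 Mb of the span covered by the table, and 52.9% of the table's regions on that chromosome were members. Chromosome 17 followed with 9.67 members per 10 Mb, and chromosome 13 had the lowest density with 2.55. On chromosome 7, 54 of 208 listed regions (26.0%) were members, the lowest share. The median size was largest on chromosome 1 (22.9 points), where 49 of 123 members reached 25 points, and smallest on chromosome 4 (18.1 points), where 16 of 112 did.

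The balance of directions also varied by chromosome. Members lower in males outnumbered those higher on 10 chromosomes, the reverse held on 6, and the numbers were equal on 3. On chromosome 9, 31 of 96 members were higher in males (32.3%). Chromosome 14 had 25 of 70 (35.7%), chromosome 13 had 11 of 29 (37.9%) and chromosome 6 had 36 of 93 (38.7%). At the other end, chromosome 17 had 46 of 85 members higher in males (54.1%) and chromosome 5 had 62 of 115 (53.9%). These shares were not tested one by one. With the table's span on each chromosome cut into 4 equal parts, the part with the highest coordinates held 38.5% of members, against 39.1% of all regions in the table, and the share higher in males was between 46.1% and 48.8% in the 4 parts.

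**Figure D2:**
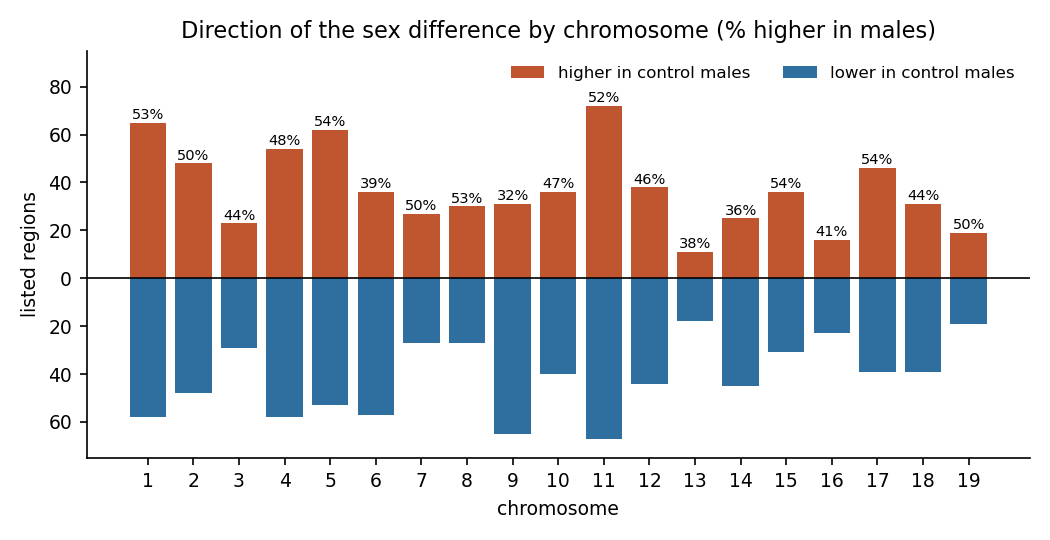
Number of members on each autosome, higher in control males above the line and lower in control males below it, with the percentage higher in males printed over each pair. Chromosome 9 has the lowest percentage (32.3%) and chromosome 17 the highest (54.1%), and chromosome 11 has the most members (139).

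Members were sparse, with a median distance of 644 kb from the start of one to the start of the next (interquartile range 149 kb to 1958 kb). A minority, 247 members (16.5%), lay within 1 kb of another, in 115 runs of which 101 were pairs. The direction was shared by 110 of 112 adjacent pairs (98.2%), whose values differed by a median of 2.73 points. Of pairs 200 to 300 bp apart, 11 of 14 shared a direction, and of pairs between 10 kb and 100 kb apart 92 of 146 did (63.0%). Between 100 kb and 1 Mb the share was 57.8% (333 of 576), and over 1 Mb it was 48.6% (287 of 591), where the overall split alone would give 50.1%. Adjacent regions can be covered by the same fragments and come from the same animals, so their likeness is no independent replicate of a difference.

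**Figure D3:**
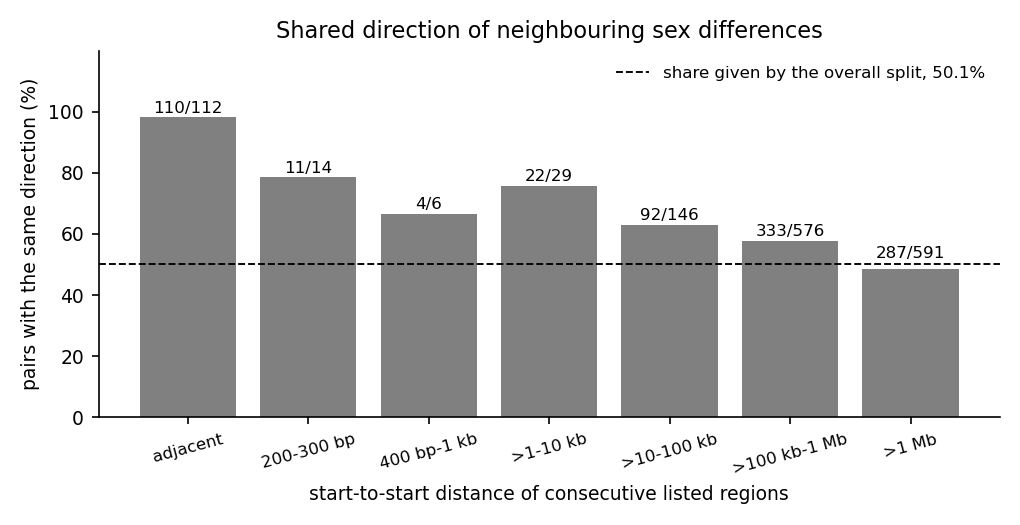
Percentage of consecutive members on a chromosome that share the direction of their sex difference, by start-to-start distance, with the counts over each bar and the share given by the overall split as a dashed line (50.1%). The share is 98.2% for adjacent regions and 48.6% for those over 1 Mb apart.

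Of 115 runs, 108 had a single direction. The longest, 5 adjacent regions at chromosome 5, 111847501 to 111848001, was lower in males throughout, with values from -19.8 to -15.2 points and a mean of -17.4 points. None of its members was listed in either comparison that involves KO males. A run of 4 adjacent regions at chromosome 10, 76032501 to 76032901, had a mean of -27.7 points. All 4 were also listed between KO and control males, at 32.9, 37.3, 25.9 and 16.3 points in the authors' deposited table, and the last 2 were lower in KO males than in KO females as well (-20.8 and -20.9 points). The sex difference at these last 2 regions thus had the same direction with and without STAT5.

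The 7 runs that held both directions were named after their values were seen. The region at chromosome 6, 121969701 to 121969801, had -67.9 points in the authors' deposited table, while a region starting 200 bp further on had 26.9 points. Directly adjacent regions of opposite sign were found at chromosome 14, 78117601 to 78117701 (18.4 points) and the next 100 bp (-31.1 points), and at chromosome 11, 115490001 to 115490101 (-21.0 points) and the next 100 bp (18.7 points), all in the authors' deposited table. The other 4 lay at chromosomes 1, 5 and 11. In these places a single label of higher or lower methylation does not describe the locus.

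Over wider windows, 36 windows of 1 Mb held 5 or more members, and 9 of them had a single direction, 6 lower and 3 higher in males. The 3 densest windows had 9 members each. On chromosome 11 between 97 and 98 Mb all 9 were lower in males (from -30.6 to -15.6 points), and 4 of them gained methylation in KO males. On chromosome 9 between 43 and 44 Mb 8 of 9 were lower in males, the exception having 17.5 points in the authors' deposited table. Here 6 of the 9 gained methylation in KO males relative to control males, and none was listed in either comparison with KO females. In the window of chromosome 5 that holds the longest run, all 9 were lower in males, 1 was listed between KO and control males and 2 between KO and control females. Members made up 9 of the 12, 10 and 15 regions that the authors listed in these windows in any comparison.

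Stretches of consecutive members with a single direction were ranked after the data were seen. The longest had 13 members lower in males on chromosome 14, 104087601 to 122060001, with a median of -29.9 points. KO and control females were listed as different at 8 of them, and KO and control males at 3. Stretches of 10 members, all lower in males, lay on chromosomes 2, 8 and 11. In these, 3, 7 and 4 members were listed between KO and control males, and 1, 3 and 1 between KO and control females. The stretches of 9 members described next are only a part of those of that length. On chromosome 6, 140141101 to 143448501, 9 members lower in males had a median of -27.6 points. All 9 were listed between KO and control males, and 5 between KO and control females. A group of 9 members higher in males on chromosome 1, 134286501 to 137580101, had a median of 26.4 points, of which 4 were listed between KO and control females and 0 between KO and control males. On chromosome 12, 18394701 to 20078001, 9 members lower in males had a median of -16.5 points, and none was listed in any other comparison. Further stretches of 9 members, on chromosomes 1, 5, 6 and 14, had 1, 1, 1 and 0 members listed between KO and control males. Of all regions in the table, KO against control males listed 55.4% and KO against control females 28.1%. No length of stretch was set against chance.

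Nearly as many members were listed only between the control sexes (712, 47.7%) as in at least 1 further comparison (781, 52.3%). The members listed nowhere else were smaller, with a median of 18.5 points, against 21.3 points in the others, and 14.2% of them reached 25 points, against 33.2% of the others. Of the members between 15 and 20 points 58.7% had no other listing, between 30 and 40 points 20.8% had none, and of those of 40 points and more 28.1% had none. The comparisons with control males or control females use the same libraries as the members, so these counts are a description. Of the members listed nowhere else 55.5% were higher in males, and of the others 39.8%, a contrast that was not tested. KO against control males, which shares the control males, listed 39.8% of members lower and 20.0% of members higher in control males. KO against control females listed 28.0% and 28.2%.

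KO males against control males listed 454 members (30.4%), against 55.4% of all regions in the table. KO males were higher at 299 of these 454 members and lower at 155. Over all regions in the table, the same comparison listed 37.8% as higher in KO males and 17.7% as lower. Members lower in control males were listed there in 313 of 787 cases (39.8%), 282 higher and 31 lower in KO males, with median values of 23.0 and -19.0 points. Members higher in control males were listed in 141 of 706 cases (20.0%), 17 higher and 124 lower in KO males, with medians of 19.5 and -20.8 points. The share of the table is no neutral background here, because a region enters the table only through a listing, and every region that is no member must be listed elsewhere. The control males enter both differences with opposite sign.

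KO females against control females listed 419 members (28.1%), and 28.1% of all regions in the table. KO females were higher at 221 of these 419 members and lower at 198. Over all regions in the table, the same comparison listed 17.1% as higher in KO females and 11% as lower. The listed share was close for members higher in control males (199 of 706, 28.2%) and lower in control males (220 of 787, 28.0%). Of the 199 members, KO females were higher at 195, with a median of 23.8 points, and lower at 4. Of the 220 members, KO females were higher at 26 and lower at 194, with a median of -23.6 points. These comparisons share the control females. By chromosome, the share of members listed between KO and control females ran from 10.4% on chromosome 5 to 45.5% on chromosome 1, and that between KO and control males from 11.8% on chromosome 17 to 43.9% on chromosome 8.

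**Figure D4:**
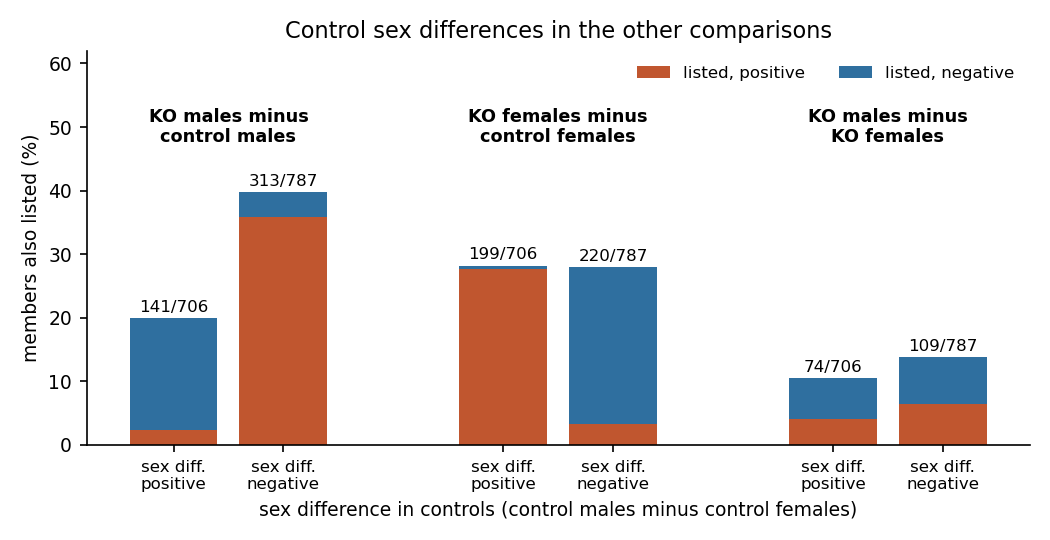
Percentage of members also listed in each of the other comparisons, for members with a positive and a negative control sex difference, split by the sign of the other value, with the listed and total numbers over each bar. KO males against control males list 20.0% of the positive and 39.8% of the negative members; the first 2 comparisons share control libraries with the members.

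The sex comparison in KO mice shares no library with the members and, like theirs, sets males against females. It listed 699 regions (18% of the table), 352 higher (9.06%) and 347 lower (8.93%) in KO males. The median size was 19.7 points in the control list and 19.6 points in the KO list, and 24.1% of control and 18.6% of KO differences reached 25 points. With the 183 regions listed in both left out, 632 of 1310 control regions (48.2%) and 272 of 516 KO regions (52.7%) were higher in males. This difference did not pass Fisher's exact test (odds ratio 0.84, 95% interval 0.68 to 1.03, two-sided, adjusted p = 0.0866 over 2 tests). With neighbours within 1 kb merged in each list, a setting added after the data were seen, it passed (Fisher's exact test, odds ratio 0.81, adjusted p = 0.0472). Without chromosome 9 and with no merging it did not pass (odds ratio 0.89, Fisher's exact test, adjusted p = 0.286). The merged lists were not tested without chromosome 9. This test takes regions as units, and all regions of a list come from the same mice, so its p-value describes the lists and no spread over animals. The KO list was most frequent on chromosome 4 (98 of its 699 regions) and the control list on chromosome 11 (139 of 1493). Within 1 kb, 94.7% of control pairs and 94.9% of KO pairs shared a direction.

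The 183 members listed in both sex comparisons were 12.3% of members, against 18% of all regions in the table. That share of the table is no neutral background, as stated above. Of the 183, 87 had the same direction and 96 the opposite one. The chromosomes divided these unevenly. All 11 on chromosome 12 and all 8 on chromosome 7 had the same direction, while all 10 on chromosome 5, 12 of 14 on chromosome 18 and 12 of 15 on chromosome 4 had the opposite one. Most of these opposite regions lay in one part of their chromosome. That part was 107627001 to 135036901 on chromosome 5, 70680401 to 89782101 on chromosome 18 and 125525501 to 149571801 on chromosome 4. They come from the same mice, and the division was not tested. Of the 87, 43 were listed in no comparison of KO with control mice, so that only the sex difference was called there, in both genotypes. The 96 were all listed in at least 1 such comparison. Opposite sex differences beyond 15 points each cannot arise unless some group changed between genotypes by over 15 points, which makes that count largely a matter of arithmetic.

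Sex differences of the same direction in both genotypes were ranked by the smaller of the pair after the data were seen, and the first 4 were lower in males. The first, at chromosome 6, 37734801 to 37734901, had -52.1 points in controls and -40.7 points in KO mice in the authors' deposited table. A region at chromosome 12, 30525101 to 30525201, had -38.2 points in controls and -30.8 points in KO mice, and one at chromosome 13, 54763001 to 54763101, had -46.0 points in controls and -30.2 points in KO mice, both in the authors' deposited table. None of these 3 regions was listed between KO and control mice of either sex. The fifth, at chromosome 2, 93260101 to 93260201, was higher in males, with 35.5 points in controls and 25.8 points in KO mice in the authors' deposited table. Among all 87 the median size was 21.8 points in controls and 19.2 points in KO mice, and 58 were smaller in KO mice.

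**Figure D5:**
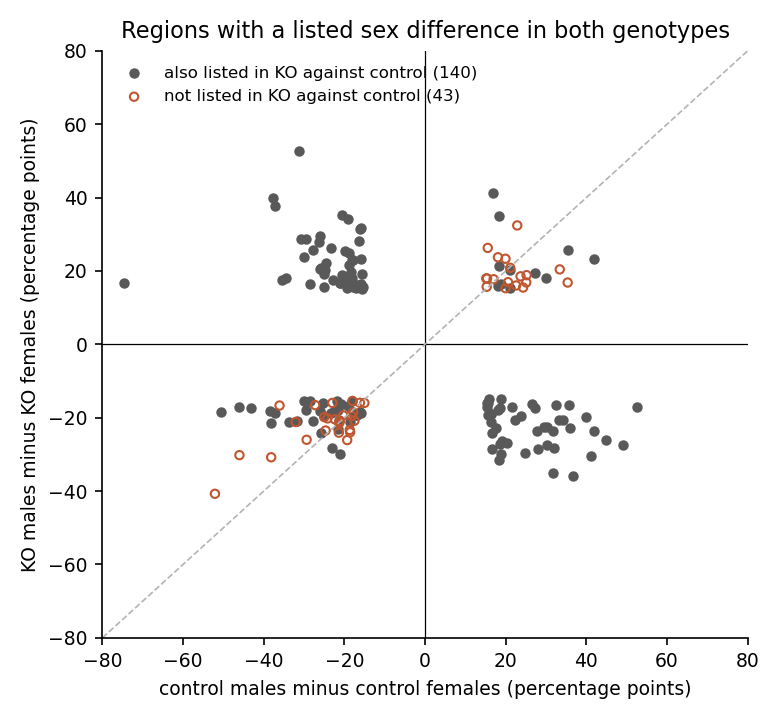
Sex difference in control mice (x axis) and in KO mice (y axis), males minus females in percentage points, for the 183 regions listed in both, with the line of equal values dashed. Open circles are the 43 regions not listed between KO and control mice, all in the quadrants of the same direction.

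Members listed in all 4 comparisons numbered 71, and those with the largest smallest value were named in each direction. A region of chromosome 9, 91098201 to 91098301, had 41.2 points between the control sexes in the authors' deposited table, -30.5 points between the KO sexes, -31.9 points between KO and control males and 39.8 points between KO and control females. The reverse pattern was at chromosome 18, 77252701 to 77252801, with -37.8, 40.0, 40.7 and -37.1 points in the same order in the authors' deposited table. At both, the sex with the higher methylation in controls was the one with the lower methylation in KO mice. The same order of values at chromosome 11, 67050901 to 67051001, was 32, -28.2, -32 and 28.2 points in the authors' deposited table. The other 3 were at chromosome 8, 130443001 to 130443101 (44.8, -26.1, -38.7 and 32.3 points), at chromosome 6, 141549001 to 141549101 (-31.3, 52.6, 30.5 and -55.8 points), and at chromosome 18, 70680401 to 70680501 (-37.3, 37.7, 29.1 and -45.9 points), all from the authors' deposited table. In all 6 the sex difference had opposite signs in the genotypes. The ranking favours such members, since opposite signs need a large change between genotypes. Not all 71 were of this kind: at chromosome 2, 93260101 to 93260201, all 4 values were positive. If each group has 1 level, adding the change of KO males to the control sex difference and subtracting the change of KO females must give the KO sex difference. That sum held within 0.05 points at 44 of the 71 members and was off by over 5 points at 18, by 33.0 points at most.

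That relation gives a value for the KO sex difference at 64 members listed in both comparisons of KO with control mice and not between the KO sexes. The value implied there had a median size of 11.5 points, against 21.9 points between the control sexes, and it was smaller than the control difference at 53. The choice of these members favours that order, since each was listed between the control sexes and none between the KO sexes. It was under 15 points at 42 and under 5 points at 12. At the other 22 it was 15 points or more although the KO sexes were not listed as different. The largest was at chromosome 1, 163254901 to 163255001, where the authors' deposited table gives 59.6 points between the control sexes, 17.3 points between KO and control males and 16.9 points between KO and control females, which implies 60.1 points between the KO sexes. The implied values carry the closing errors given above.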

How the data were processed

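Liver DNA of 23 mice was analysed by reduced representation bisulfite sequencing. The submitters' processing notes name the build mm9 and the tools Bismark, methylKit and Trim Galore (version 0.4.3). How each tool was used, the coverage minimum and how animals entered the test were not given in the sources used here. The authors deposited a table of differences in percent methylation between groups, in percentage points, for regions of 100 bp. Listing required, per the file legend, a difference of over 15 points in either direction with a q-value under 0.05. Read depth is unknown, and no value per animal was analysed here.

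From this table were computed counts, quantiles, start-to-start distances, runs of members no more than 1 kb apart, windows of 1 Mb, an exact binomial test and Fisher's exact test (Python 3.11.15, scipy 1.17.1), adjusted by Benjamini-Hochberg over these 2. Counting was checked on simulated data. Regions named are the 10 largest differences in each direction, runs of 4 or more, the 3 densest windows and, in each direction, members listed in all 4 comparisons with the largest smallest value, 3 per direction. Alternatives were a minimum of 25 points, merged neighbours and other neighbour distances. Removal of chromosome 9 and, for Fisher's exact test, merging within 1 kb were added after the data were seen. The members and lists were chosen with earlier results of these data known. Since no genome of the build was used here, no sequence or gene is given.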

Additional observations from a re-analysis of the deposited data

How the results depend on the processing

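The share of members higher in males was 47.3% (exact binomial test, adjusted p = 0.0768). In the same exact test it was 43.1% with a minimum of 25 points (adjusted p = 0.0194) and 47.1% with neighbours within 1 kb merged (adjusted p = 0.0472), both now past the threshold, the first with fewer regions tested. The second adjusted value was set by the Fisher's exact test adjusted with it, in a setting added after the data were seen. Merging within 10 kb (47.5%) and leaving out chromosome 9, with and without the minimum of 25 points, did not bring the share higher in males past the threshold. The comparison with the KO sex list passed with neighbours within 1 kb merged, an alternative added after the data were seen (odds ratio 0.81, Fisher's exact test, adjusted p = 0.0472), and not in the other settings, with odds ratios from 0.67 to 0.89. Shared direction among neighbours ranged from 91.3% to 96.0%. The share of members also listed between KO and control males was 30.4%, and it was 32.8% when a listed region within 1 kb counted and 43.3% among members of at least 25 points. Between KO and control females the values were 28.1%, 30.9% and 40.3%, and between the KO sexes 12.3%, 13.9% and 19.7%. The cause of these shifts was not tested. No paired analysis was possible because the table holds group differences and no value per animal, which also prevented leaving out single mice.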

Other observations

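Equal values in paired columns stood out. At 17 members the difference between KO and control males was the exact negative of the difference between control males and control females, to within 0.005 points, as if KO males and control females had the same level there. All 17 were higher in control males, and 7 lay on chromosome 11, 3 on chromosome 9 and 3 on chromosome 10. In the authors' deposited table these include chromosome 11, 88289701 to 88289801 (58.88 and -58.88 points), 66208101 to 66208201 (41.94 and -41.94 points) and 3 regions between 101666601 and 101752301 (19.46, 15.15 and 23.39 points). On chromosome 9, 39407501 to 39407601, the values were 35.31 and -35.31 points in the authors' deposited table. At 2 further members, both on chromosome 16, the difference between KO and control females equalled the control sex difference, at 55940701 to 55940801 (-30 points for each) and 56211601 to 56211701 (-35.59 points for each, all from the authors' deposited table). Equal levels of control males and KO females would also make the KO sex difference equal to the change of KO males. In the authors' deposited table this held at the first (23.81 points for each) and not at the second (17.54 and 21.54 points). The table gives no levels, so whether any shared levels were at the floor of the methylation scale was not tested.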
